A study of Mus musculus with 7 samples.

Results

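Neutrophil granule protein genes encode the antimicrobial cargo of neutrophils, and 10 of them were followed here across 7 whole mouse spleens: Mpo, Elane, Prtn3, Ctsg, Ltf, Camp, Ngp, Lcn2, S100a8 and S100a9. They were chosen by name, and all 10 were found among the 24062 genes of the deposited count table. All 10 passed the filter on low counts that left 15188 genes for testing. The samples were 3 enlarged spleens from mice of genotype Vav1-iCre;Brca1F22-24/F22-24 and 4 spleens from C57BL6 wild-type mice, all aged 2 to 3 months. Vav1-iCre drives the Cre recombinase from Vav1 regulatory sequence, which is active across the blood lineages, and the name of the Brca1 allele marks exons 22 to 24. The recombinase, the Brca1 allele and splenic enlargement are named for the mutant group only, and the strain for wild type only, so their effects cannot be told apart. Each library is labelled as its own spleen, with nothing on litters or matching, and the p-values below reflect variation among these 7 spleens.

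Neutrophils load their granules in waves while they mature in bone marrow, and in mice also in the spleen. Primary (azurophil) granules form first, in promyelocytes, and hold myeloperoxidase (Mpo) and the serine proteases neutrophil elastase (Elane), proteinase 3 (Prtn3) and cathepsin G (Ctsg). Secondary (specific) granules form later, in myelocytes, and hold the iron binding protein lactoferrin (Ltf), the cathelicidin precursor (Camp), neutrophilic granule protein (Ngp) and the siderophore binding protein lipocalin 2 (Lcn2). S100a8 and S100a9 pair to form calprotectin, an abundant metal binding protein of the neutrophil cytosol. Transcripts of the granule proteins are made mostly during maturation, whereas receptors such as Cxcr2 mark the mature cell. The factors C/EBP and PU.1 (encoded by Cebp genes and Spi1) are known to act on many of these promoters.

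Promoter sequence was available for all 10 members from RefSeq (GRCm38.p6, the same assembly as the mm10 of the deposited coordinates). In windows of 300 bases around the gene start, the letters GAGGAA, the core of a PU.1 site, were found on either strand in 7 of 10 members. Of 32851 promoter windows of the same length 28.3% held them. The letters TTGCNNAA, a form of the C/EBP site, were found on either strand in 4 of 10 members and in 10.8% of all windows. A match of letters is a description and not a binding site. The 250 bases before the start are shown for a pair of primary and a pair of secondary members, because these pairs turn up again in the ratios within libraries. Capitals mark GAGGAA in the first pair, which lies next to each other on chromosome 10, and matches to TTGCNNAA or its reverse complement in the second pair, both on chromosome 9. All 4 are read 5′ to 3′ on the plus strand, at chr10:79886062-79886311, chr10:79879417-79879666, chr9:111019042-111019291 and chr9:110419558-110419807.
Elane: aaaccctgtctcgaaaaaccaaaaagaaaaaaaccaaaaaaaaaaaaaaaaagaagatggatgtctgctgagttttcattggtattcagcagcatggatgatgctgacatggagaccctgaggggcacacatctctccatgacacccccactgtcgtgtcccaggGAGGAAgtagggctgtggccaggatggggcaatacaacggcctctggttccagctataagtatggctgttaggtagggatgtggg
Prtn3: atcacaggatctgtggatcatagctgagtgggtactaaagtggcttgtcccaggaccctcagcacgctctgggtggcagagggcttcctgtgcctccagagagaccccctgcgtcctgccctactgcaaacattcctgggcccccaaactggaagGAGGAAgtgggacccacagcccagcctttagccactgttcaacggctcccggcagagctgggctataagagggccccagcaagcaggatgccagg
Ltf: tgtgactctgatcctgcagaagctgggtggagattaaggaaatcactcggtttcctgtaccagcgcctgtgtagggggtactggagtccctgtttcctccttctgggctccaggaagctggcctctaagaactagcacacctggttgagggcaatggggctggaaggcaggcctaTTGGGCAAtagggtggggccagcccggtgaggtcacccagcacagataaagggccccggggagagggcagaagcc
Ngp: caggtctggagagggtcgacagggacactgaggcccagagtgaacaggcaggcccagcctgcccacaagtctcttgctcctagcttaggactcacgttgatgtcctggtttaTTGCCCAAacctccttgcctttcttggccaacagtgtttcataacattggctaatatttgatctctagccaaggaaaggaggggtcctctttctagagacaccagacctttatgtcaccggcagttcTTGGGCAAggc
The match began 85 bases before the start of Elane and 95 before that of Prtn3, and the 2 sequences shared no stretch longer than 9 bases. In Ngp matches began 138 and 11 bases before the start, and in Ltf 75 bases before it.

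Total counts per library ranged from 26889712 to 63612532, and no pair of libraries within a group agreed within sampling noise. The 10 members together held 26133, 19991 and 589 counts in mutants 1 to 3 and 30122, 47806, 41216 and 42632 in wild-type 1 to 4. Values are given as CPM, counts scaled to library size after TMM normalization, with means ± SD over 3 mutant or 4 wild-type spleens. Differences are log2 fold changes, mutant minus wild type, from edgeR's quasi-likelihood test with Benjamini-Hochberg adjustment over all genes tested. Brca1 itself is no member, and counts summed over a whole gene do not show which exons were read, so the genotype labels were not checked against it.

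No granule gene passed the test between the groups, and the mutant spleens stood far apart. In mutants 1 and 2 the members stood at 43.7% to 163% of their wild-type means, and in mutant 3 at 0.570% to 5.80%. Summed over the 10 members, mutants 1, 2 and 3 held 539, 705 and 19.2 CPM, which were 50.02%, 65.4% and 1.78% of the wild-type mean of 1077 ± 507 CPM. None of the 10 passed at an adjusted p under 0.05, whereas 57.4% of all genes tested did, 28.9% lower and 28.5% higher. In edgeR 0 members had an unadjusted p under 0.05. DESeq2 and limma-voom also called 0, with 0 and 1 members under that unadjusted level. The fold changes ranged from -1.65 to -0.13 with a median of -1.28, beside -0.02 over all genes tested. Their standard errors were 0.85 to 1.12, where the median over all genes tested was 0.27. In bulk tissue fewer cells of a type and less RNA per cell cannot be told apart.

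**Figure D1:**
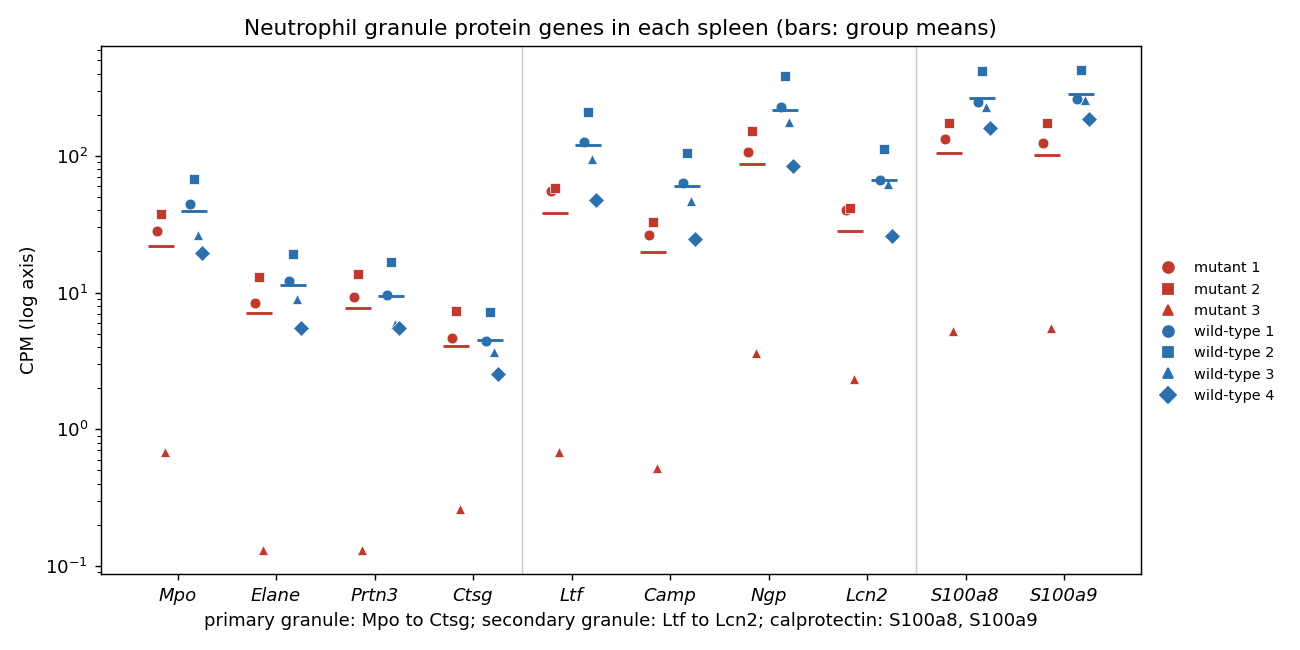
CPM on a log axis for each of the 10 members, with 1 point per spleen (red mutant, blue wild type, symbol by replicate number) and bars at the group means. Mutant 3 lies below every other spleen for all 10 members, while mutants 1 and 2 lie inside the wild-type range for most of them.

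Among the primary granule genes, Mpo, which makes hypochlorous acid from hydrogen peroxide, stood at 28.0, 37.5 and 0.684 CPM in mutants 1 to 3. In wild-type 1 to 4 it stood at 44.8, 67.9, 26.2 and 19.5 CPM. Mutants 1 and 2 thus lay within the wild-type range and mutant 3, with 21 counts, far below it (-0.84, SE 1.00, adjusted p = 0.497, edgeR). Elane, a protease that cuts bacterial and matrix proteins, stood at 8.35, 12.9 and 0.130 CPM in the mutants. Its wild-type values were 12.2, 19.1, 8.96 and 5.55 CPM, again on both sides of mutants 1 and 2 (-0.68, SE 1.03, adjusted p = 0.598, edgeR).

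Prtn3, a related protease next to Elane, stood at 9.28, 13.6 and 0.130 CPM in mutants 1 to 3, against 9.69, 16.8, 5.93 and 5.48 CPM in wild type (-0.30, SE 1.04, adjusted p = 0.821, edgeR). Elane and Prtn3 had only 4 counts each in mutant 3, for which an exact Poisson interval at 95% runs from 1.09 to 10.2 counts. Ctsg, the cathepsin G protease, stood at 4.68, 7.30 and 0.260 CPM in mutants 1 to 3, against 4.45, 7.26, 3.70 and 2.55 CPM in wild type (-0.13, SE 0.85, adjusted p = 0.907, edgeR). For Ctsg mutant 2 was the highest of all 7 spleens, by a margin far smaller than the spread between wild-type spleens. Without mutant 3 the fold changes of Prtn3 and Ctsg were 0.27 (SE 0.50) and 0.42 (SE 0.45), with adjusted p = 0.677 and adjusted p = 0.459 in edgeR, and without wild-type 2 they were 0.15 and 0.22, so their sign rests on single spleens.

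Secondary granule genes stood at 43.7% to 69.4% of their wild-type means in mutants 1 and 2, where the primary ones stood at 70.8% to 163%. Ltf, which withholds iron from microbes, was at 55.8, 58.4 and 0.684 CPM in the mutants. In wild type it was at 125.8, 211, 95.5 and 47.7 CPM. Mutants 1 and 2 exceeded only wild-type 4, and mutant 3 was 176-fold below the wild-type mean on 21 counts (-1.65, SE 1.12, adjusted p = 0.239, edgeR). Camp, the precursor of the antimicrobial peptide CRAMP, was at 26.3, 32.9 and 0.521 CPM in mutants 1 to 3, against 63.3, 105.8, 46.8 and 24.8 CPM in wild type (-1.59, SE 1.05, adjusted p = 0.226, edgeR).

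Ngp, a cystatin-like granule protein, was at 107 CPM, 151 CPM and 3.61 CPM in mutants 1 to 3. Its wild-type values were 227, 386, 176 and 84.2 CPM, so the groups overlapped through wild-type 4 only (-1.32, SE 1.01, adjusted p = 0.293, edgeR). Lcn2, which binds the bacterial iron carrier enterobactin and is also made by epithelia and macrophages, was at 40.4, 41.7 and 2.34 CPM in the mutants. It was at 67.1, 112.6, 62.5 and 25.8 CPM in wild type (-1.25, SE 0.87, adjusted p = 0.249, edgeR). In each of these 4 genes mutants 1 and 2 lay above wild-type 4 and below the other wild-type spleens.

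Of the calprotectin subunits, S100a8 stood at 133.9, 175.5 and 5.27 CPM in the mutants. In wild type it stood at 248, 418, 228 and 160.7 CPM (-1.33, SE 0.92, adjusted p = 0.247, edgeR). S100a9 stood at 124.7, 173.5 and 5.54 CPM in mutants 1 to 3, against 262, 426, 258 and 187 CPM in wild type. It was the only member whose groups did not overlap, where 61.7% of all genes tested did not, 32.6% with the mutants lower and 29.2% with them higher. Its fold change of -1.48 (SE 0.90) did not pass (adjusted p = 0.192, edgeR), nor did the value of -0.92 (SE 0.37) without mutant 3 (adjusted p = 0.0745).

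The low level in mutant 3 held for the whole set. All 10 members were at least 10-fold and 8 at least 30-fold below the wild-type mean there, the exceptions to the latter being Ctsg and Lcn2. Of all genes tested, 10.6% and 5.29% were so low in mutant 3. No member was 10-fold below in mutant 1 or 2, where 3.65% and 5.75% of all genes were, or 30-fold below, where 1.19% and 1.96% were. Without mutant 3 the median fold change of the members was -0.73, and edgeR again called 0 of them, with S100a9 alone at an unadjusted p under 0.05, beside 53.6% of all genes called and 27.9% called lower. The smallest shortfall in mutant 3 was that of Ctsg, 17.2-fold, and the largest that of Ltf. The mutant 3 library held 35670644 counts, between those of mutants 1 and 2.

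The members varied more between spleens of one group than most genes did. Their SD of log2 CPM was 2.39 to 3.72 in mutants 1 to 3, against 0.49 to 0.91 in wild type. Over the 14730 tested genes with a count in every library the median SD was 0.39 and 0.20. Of those genes 1.49% reached the lowest member's SD in mutants 1 to 3, against 13.8% in wild type. The order of the wild-type spleens was the same for all 10 members, with wild-type 2 highest, then 1, 3 and 4, and the highest exceeded the lowest by 2.28-fold (S100a9) to 4.58-fold (Ngp). Mutant 2 was the highest mutant for all 10.

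Erythroid markers also ran highest in wild-type 1 and 2. The 7 markers (among them Alas2, Klf1 and Hbb-b1) summed to 16812 and 41575 CPM in wild-type 1 and 2, against 2999.8 and 3234 CPM in wild-type 3 and 4. In mutants 1 to 3 they summed to 21209, 4029 and 5653 CPM, so mutant 1 was high and mutants 2 and 3 were low. Their median fold change was 0.13, and their part in the order of the granule genes was not tested. Without wild-type 1 and 2 together, 0 members were called, beside 5934 of the 15474 genes tested in that fit.

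Compared per length, on a scale of CPM per kb of annotated exon, calprotectin led the set. In wild type S100a8 stood at 543 ± 225 and S100a9 at 542 ± 194 CPM per kb. Ngp followed at 179 ± 103, Camp at 79.4 ± 45.2, Lcn2 at 73.2 ± 38.9 and Ltf at 42.8 ± 24.5 CPM per kb. The primary genes came last, with Mpo at 13.6 ± 7.47, Elane at 11.6 ± 5.87, Prtn3 at 9.25 ± 5.13 and Ctsg at 4.48 ± 2.00 CPM per kb. Neighbours in this order differed by less than the larger of their SDs except at the steps from S100a9 to Ngp and from Ltf to Mpo. Both calprotectin genes exceeded the other 8 in all 7 libraries. Every secondary gene exceeded every primary gene in 6 libraries, the exception being mutant 3, where Ctsg at 0.260 CPM per kb stood just above Ltf at 0.244.

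Ratios within a library do not depend on its depth or scaling, and they are given as values with no test. Ngp over Ltf held between 1.77 and 1.84 in the 4 wild-type spleens and stood at 1.92, 2.59 and 5.29 in mutants 1 to 3. For mutant 3 the ratio rests on 111 and 21 counts, with a 95% exact binomial interval of 3.29 to 8.88. Lcn2 over Ltf was 0.533 to 0.654 in wild type and 0.724, 0.714 and 3.43 in the mutants. In these values every mutant held more Ngp and more Lcn2 per Ltf transcript than any wild-type spleen did. Of all ordered gene pairs with counts in every library, 29.1% were likewise higher in every mutant. Both ratios share Ltf, the member with the lowest fold change. The mutant 1 value of Ngp over Ltf, on 5209 and 2708 counts, stood close to the wild-type range and has no interval.

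The primary genes were also set against the secondary ones. Mpo over Ltf was 0.275 to 0.409 in wild type and 0.502, 0.641 and 1.00 in the mutants. Of the 16 pairs of a primary with a secondary gene, 10 were higher in every mutant than in every wild-type spleen. Over all ordered pairs of the 14730 genes with a count in every library the share was 29.1%. These 10 were the 4 primary genes over Ltf, the 4 over Camp, and Ctsg over Ngp and over Lcn2. In 6 of these 10 pairs the 95% exact interval of mutant 3 reached the wild-type range, among them Elane and Prtn3 over Camp, which rest on 4 and 16 counts. The interval lay above that range for Mpo over Ltf and for Ctsg over Ltf, Camp and Ngp. The remaining pairs overlapped. The sum of primary over the sum of secondary genes was 0.219, 0.250 and 0.168 in mutants 1 to 3, against 0.147, 0.136, 0.118 and 0.181 in wild type, and mutant 3 fell within the wild-type range.

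Within the primary set, Elane over Prtn3 was 0.900, 0.951 and 1.00 in mutants 1 to 3, against 1.01 to 1.51 in wild type. The mutant 3 value rests on 4 counts of each gene, with an interval of 0.186 to 5.37 that spans the wild-type values. Ctsg over Mpo was 0.167, 0.195 and 0.381 in the mutants against 0.0994 to 0.141 in wild type. Camp over Ltf was 0.490 to 0.520 in wild type and 0.471, 0.562 and 0.762 in the mutants, with mutant 1 below and mutants 2 and 3 above the wild-type range, but mutant 3 on 16 and 21 counts with an interval of 0.372 to 1.53 that spans it. S100a8 over S100a9 was 0.861 to 0.981 in wild type and 1.07, 1.01 and 0.953 in the mutants. These intervals cover counting error only, and reads were not collapsed to molecules. They were computed for mutant 3 alone. Whether mutants 1 and 2 left the wild-type ranges by more than counting error was not tested. For Camp over Ltf their counts were 1276 over 2708 and 932 over 1658. For Elane over Prtn3 they were 405 over 450 and 366 over 385.

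**Figure D2:**
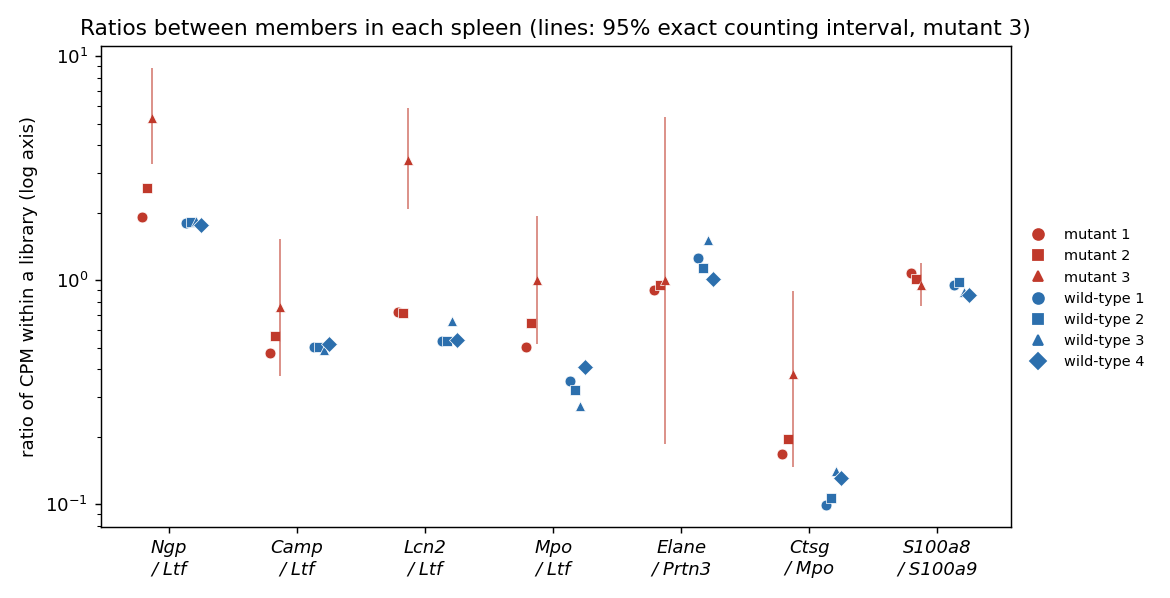
Ratio of CPM between named members within each library, on a log axis, with red for mutant and blue for wild-type spleens. Thin lines are 95% exact counting intervals for mutant 3. Ngp over Ltf lies between 1.77 and 1.84 in wild type and at 1.92 to 5.29 in the mutants.

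Of 15 tested genes for other granule and membrane proteins of neutrophils 8 fell and 1 rose, with a median of -2.09, beside 28.9% of all genes tested that fell and 28.5% that rose. Lyz2 and Lyz1, lysozymes shared with macrophages, fell by 2.87 (SE 0.39) and 2.93 (SE 0.34) on the log2 scale. Of the chains of the integrin Mac-1, Itgam fell by 2.54 (SE 0.34) and Itgb2 fell by 1.156 (SE 0.16). Mmp9, the gelatinase of tertiary granules, went from 33.3 ± 4.49 to 4.37 ± 2.39 CPM (-2.92, SE 0.43). Its mutant values were 6.37, 5.01 and 1.73 CPM, all below the wild-type low of 30.5 CPM. Mmp8, the neutrophil collagenase of secondary granules, stood at 6.89, 3.98 and 0.293 CPM in mutants 1 to 3, against 11.9, 22.5, 18.7 and 10.9 CPM in wild type. It missed the threshold in edgeR (-2.09, SE 0.83, adjusted p = 0.0616) and passed without mutant 3 (-1.56, adjusted p = 0.0184) and without mutant 1 (-2.81, adjusted p = 0.0377), and with DESeq2 (-2.08, adjusted p = 0.0107).

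The gene of this list that rose was Prss57, a serine protease of primary granules also called NSP4. It stood at 9.53, 23.5 and 59.6 CPM in mutants 1 to 3 and at 1.34, 1.74, 0.708 and 0.607 CPM in wild type (4.84, SE 0.69, adjusted p = 9.78e-04, edgeR). Mutant 3 was its highest spleen and the lowest for Mpo, Elane, Prtn3 and Ctsg. Which cells held the Prss57 transcripts was not tested, nor was the part of T cells, whose markers also rose.

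Genes that pack, activate, inhibit or release granule proteins went both ways, with 6 of 15 lower, 4 higher and a median of -0.45, beside 28.9% of all genes lower and 28.5% higher. Srgn, the proteoglycan core that holds proteases in granules, went from 264 ± 30.4 to 98.7 ± 32.0 CPM (-1.42, SE 0.23). Ctsc, which activates the serine proteases of primary granules, went from 236 ± 45.4 to 103.5 ± 21.5 CPM (-1.19, SE 0.21). Serpinb1a, an inhibitor of those proteases, fell by 2.51 (SE 0.46) and Lyst, a regulator of granule size, by 1.17 (SE 0.14) on the log2 scale. Hax1 and Vps45, which are mutated in inherited neutropenia, rose by 0.94 (SE 0.19) and 0.73 (SE 0.14). Ap3b1, which sorts granule cargo, and Rab27a, needed for granule release, passed at 1.02 (SE 0.32) and 0.67 (SE 0.22). Both calls were lost without mutant 3, at 0.54 (adjusted p = 0.0644) and 0.72 (adjusted p = 0.0514), and without wild-type 1, 2 or 4, so that 2 genes of the list rose in each of these fits. The Ap3b1 call was also lost without wild-type 3 (1.07, adjusted p = 0.0510) and the Rab27a call without mutant 2 (0.42, adjusted p = 0.123).

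Transcription factors of granulocyte differentiation went both ways, with 4 of 12 lower, 5 higher and a median of -0.11, shares to be read against 28.9% lower and 28.5% higher over all genes. Without wild-type 1 and 2 together 3 were higher, in a fit that called 5934 of 15474 genes in either direction. Irf8, a factor of the monocyte and B cell lineages that restrains granulocytes, fell by 3.29 (SE 0.56) on the log2 scale. Spi1 (PU.1) stood at 13.98, 8.64 and 2.38 CPM in mutants 1 to 3, against 61.8 to 79.5 CPM in wild type (-2.99, SE 0.54). Cebpa, which commits progenitors to the myeloid path, stood at 3.92, 1.59 and 0.847 CPM in mutants 1 to 3, against 12.1, 12.3, 17.1 and 18.2 CPM in wild type (-2.80, SE 0.52). Spi1 and Cebpa were thus below every wild-type spleen in all mutants, as were 32.6% of all genes tested. Of the 10 granule genes 7 lay within the wild-type range in both mutants 1 and 2, a share not computed over all genes. For Ltf, Camp, Ngp and Lcn2 this rested on wild-type 4 alone. The part of B cells and macrophages, most of whose markers fell, in the level of Spi1 was not tested. Cebpe, which is required for secondary granules, did not pass in edgeR (-1.81, SE 0.79, adjusted p = 0.0818) and passed in DESeq2 (-1.78, adjusted p = 0.0321), at 0.928, 1.30 and 0.0977 CPM in mutants 1 to 3, against 3.43, 4.55, 1.86 and 1.20 CPM in wild type. It kept the wild-type order of the members.

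Factors that rose included Gfi1, which represses the monocyte programme but also acts in lymphoid progenitors, from 11.9 ± 0.917 to 59.8 ± 21.1 CPM (2.33, SE 0.26). Myb and Lef1, active in myeloid progenitors and in immature T cells, rose by 2.72 (SE 0.32) and 1.96 (SE 0.21). Runx1 rose by 1.08 (SE 0.26), a call lost without wild-type 1 and 2 together (1.01, adjusted p = 0.0711) and with the replicate number as a block (1.01, adjusted p = 0.0523). Cbfb, the partner of Runx1, passed at 0.71 (SE 0.25, adjusted p = 0.0424). Its call was lost without any one of mutant 2, mutant 3 and wild-type 1, 2 and 3, with adjusted p = 0.147 without mutant 2, and with library size as the only scaling (0.44, adjusted p = 0.205). The 6 immature and mature T cell markers (Cd3e, Cd3g, Lck, Cd8a, Rag1 and Ptcra) also rose, where 28.5% of all genes did. Their sum was 1254 to 2932 CPM in the mutants against 411 to 561 CPM in wild type. The part of those cells in the levels of Gfi1, Myb, Lef1 and Runx1 was not tested.

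Of 14 receptors for growth factors, chemoattractants and granule proteins, 11 fell and 3 did not pass, with a median of -2.33. Over all genes tested 28.9% fell. Without mutant 2, 6 of the receptors fell, in a fit that called 7696 of 15537 genes in either direction, where the main fit called 8724 of 15188. Csf3r, the receptor for granulocyte colony stimulating factor, stood at 16.4, 8.57 and 1.43 CPM in mutants 1 to 3, against 61.8, 52.4, 113 and 82.1 CPM in wild type (-3.13, SE 0.74). Cxcr2, which guides mature neutrophils out of the marrow, stood at 8.95, 7.47 and 2.21 CPM in mutants 1 to 3, against 26.9, 30.8, 41.8 and 39.4 CPM in wild type (-2.48, SE 0.47). For both genes wild-type 3 was the highest spleen, not wild-type 2. Slc22a17, a receptor for Lcn2, fell by 2.75 (SE 0.25) on the log2 scale.

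Of 12 tested mature neutrophil genes 9 fell and 3 did not pass, with a median of -2.49, beside 28.9% of all genes that fell. Cxcr2 and Il1r2 are also among the receptors above, and Mmp9 among the other granule and membrane proteins. Asprv1, a protease of mature neutrophils, fell by 2.76 (SE 0.43) and G0s2, a lipase inhibitor, by 0.997 (SE 0.18). Among 9 neutrophil precursor genes 3 fell and 2 rose, with a median of -1.19. These shares stand near the 28.9% and 28.5% of all genes that fell and rose. Prss57, Fcnb, Chil3, Cebpe, Gfi1 and Ctsc also stand in the lists above, and the 2 that rose were Prss57 and Gfi1. Fcnb, a ficolin, stood at 3.79, 3.77 and 0.0326 CPM in mutants 1 to 3, against 5.16, 9.37, 3.98 and 1.91 CPM in wild type. It did not pass (-1.001, SE 1.05, adjusted p = 0.442, edgeR). Ms4a3, a membrane protein of granulocyte progenitors, stood at 2.60, 4.37 and 0 CPM in mutants 1 to 3, against 3.71, 4.78, 2.19 and 1.41 CPM in wild type. It did not pass either (-0.37, SE 1.10, adjusted p = 0.793), and its sign turned without mutant 3 (0.22). For both genes mutants 1 and 2 lay within the wild-type range and mutant 3 below it.

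The sum of the members over Csf3r was 32.9, 82.3 and 13.4 in mutants 1 to 3, against 17.2, 33.8, 8.06 and 6.85 in wild type. The groups overlapped, with mutant 2 above every wild-type spleen and mutant 3 inside their range. Over Cxcr2 the sum was 60.2, 94.3 and 8.66 in mutants 1 to 3, against 39.5, 57.5, 21.8 and 14.3 in wild type. By that ratio mutants 1 and 2 stood above every wild-type spleen and mutant 3 below every one. Of 6 NADPH oxidase subunits, which make the superoxide that feeds Mpo, 5 fell and 1 did not pass, with a median of -3.36. Over all genes tested 28.9% fell. Ncf1, the p47phox organiser, stood at 17.8, 18.6 and 3.06 CPM in mutants 1 to 3, against 213 to 249.1 CPM in wild type (-4.11, SE 0.60). Ncf4, a partner in the cytosol, fell by 3.27 (SE 0.64) on the log2 scale. These subunits are also made by B cells and macrophages. All 5 B cell markers (among them Cd79a, Ms4a1 and Pax5) fell, and they summed to 21.0 to 128 CPM in the mutants against 2493 to 3349 CPM in wild type. Their part in the oxidase result was not tested.

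**Figure D3:**
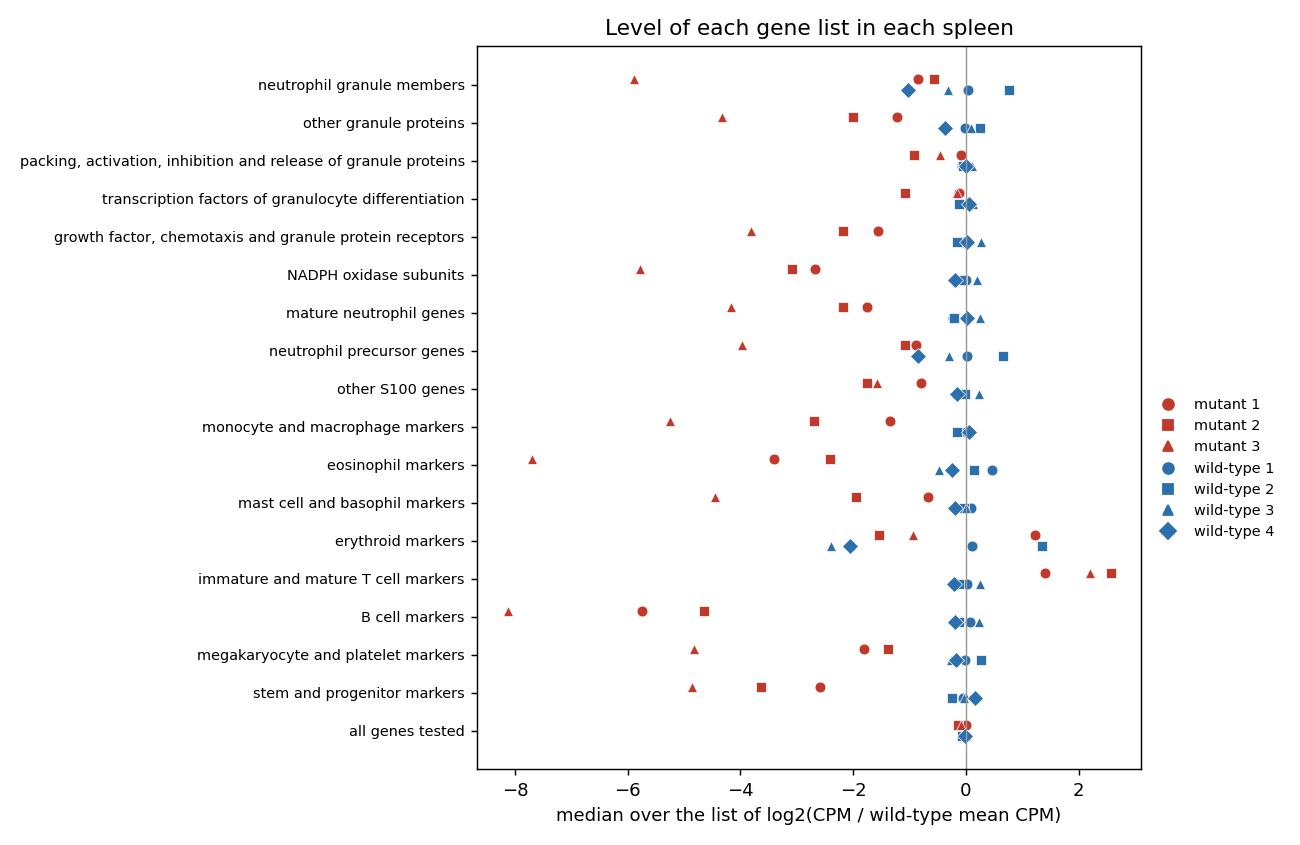
Median over each gene list of log2 of CPM over the wild-type mean, for each spleen, with 0 at the wild-type mean. Red symbols are mutants and blue symbols wild type. The granule members stand at -0.85, -0.56 and -5.89 in mutants 1 to 3, and the mature neutrophil genes at -1.76, -2.17 and -4.17.

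Markers of other cell types in the spleen give the setting of these levels. Their counts are to be read against 28.9% of all genes tested that fell. Genes called in either direction numbered 8724 with all spleens, 7696 without mutant 2, 7766 without wild-type 2 and 9821 without mutant 1. Of 8 monocyte and macrophage markers 6 fell, and 3 fell without mutant 2. They summed to 539, 227 and 77.3 CPM in mutants 1 to 3 and to 1036 to 1170.5 CPM in wild type. Of 5 eosinophil markers 4 fell, with sums of 5.41 to 62.8 CPM in mutants 1 to 3, against 118 to 201 CPM in wild type. Of 5 mast cell and basophil markers 1 fell (0 without mutant 2 or wild-type 2, 4 without mutant 1), with sums of 5.47 to 23.2 CPM against 13.9 to 17.02 CPM, and of 5 megakaryocyte and platelet markers 3 fell (0 without wild-type 2), with sums of 5.01 to 64.3 CPM against 149.9 to 212 CPM. Of 5 stem and progenitor markers 4 fell, with sums of 7.98 to 44.0 CPM against 101.4 to 137 CPM. Siglecf (listed as Siglec5), Mcpt8 and Fcer1a had 0 counts in mutant 3. The part of these cell types in the levels of Lcn2 and calprotectin, which other cells also make, was not tested. Nor was the part of these cell types in the levels of the mature neutrophil genes.

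Other genes were ranked by how alike their profile over the 7 libraries was to the mean profile of each set. Likeness was the mean absolute difference of centred log2 CPM, searched among 11313 genes with at least 5 CPM on average, so that a smaller value is more alike. Chil3, a chitinase-like protein of neutrophils and macrophages, came closest to calprotectin at 0.22, followed by Cd177, a neutrophil surface protein, at 0.26. Cd177 at 0.27 and Chil3 at 0.44 also led for the secondary genes. For the primary genes Hs3st2, a heparan sulfate sulfotransferase, was closest at 0.35, followed by Cd177 at 0.41 and Chil3 at 0.52. Slc6a4, the serotonin transporter, stood among the 5 closest genes for each of the 3 sets, at 0.57, 0.44 and 0.36. Gp9, a platelet glycoprotein, was the fifth for both the primary and the secondary set, at 0.59 and 0.51. For comparison, Ctsg differed from the mean profile of the primary genes by 0.35 and Lcn2 from that of the secondary genes by 0.34.

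Of 8 tested S100 genes other than calprotectin 5 fell and 3 did not pass, with a median of -1.27. Over all genes tested 28.9% fell. S100a4, a gene of motile and memory cells, stood at 9.88, 3.56 and 6.87 CPM in mutants 1 to 3 and at 57.2 to 112.5 CPM in wild type (-3.52, SE 0.41). S100a6 stood at 16.2, 12.3 and 16.8 CPM in mutants 1 to 3, against 40.0 to 54.1 CPM in wild type (-1.602, SE 0.19). For S100a6 mutant 3 was thus the highest mutant, where S100a8 and S100a9 had it lowest. Of the 8, 1 (S100a4) was at least 10-fold below the wild-type mean in mutant 3, near the share of 10.6% over all genes tested.

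The members lie on 6 chromosomes, and several are neighbours in the genome (mm10). Prtn3 (chromosome 10, 79879667 to 79883172, plus strand) and Elane (chromosome 10, 79886312 to 79888216, plus strand) lie 3139 bases apart. S100a8 (chromosome 3, 90669071 to 90670034, plus strand) and S100a9 (chromosome 3, 90692630 to 90695721, minus strand) lie 22595 bases apart with no tested gene between. Camp (109847377 to 109849456, minus strand), Ngp (110419808 to 110423012, plus strand) and Ltf (111019292 to 111042766, plus strand) lie on chromosome 9. Mpo is on chromosome 11 (87793784 to 87804412, plus strand), Ctsg on 14 (56099881 to 56102574, minus strand) and Lcn2 on 2 (32384637 to 32387739, minus strand). The deposited span of Bc1 covers Prtn3 and Elane, and whether reads were shared with it is not given in the sources used here.

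Of the 16 nearest tested genes on either side that are no member, 4 rose, 8 fell and 4 did not pass, beside 28.5% of all genes that rose and 28.9% that fell. Their distance from the member ran from 2636 bases (Cfd from Elane) to 2824774 bases (S100a11 from S100a9). Bzrap1 next to Mpo rose by 1.13 (SE 0.16), Nme6 and Cdc25a on the sides of Camp by 1.597 (SE 0.20) and 2.03 (SE 0.18), and Ptges2 next to Lcn2 by 1.08 (SE 0.21). Klhl18, 2913 bases from Ngp, fell by 1.63 (SE 0.18) and stood at 28.8% of the wild-type mean in mutant 3, where Ngp stood at 1.66%. In mutant 3, where 10.6% of all genes were at least 10-fold below the wild-type mean, 3 of the 16 were, namely Cfd, Mcpt8 and Gzmb. For Cfd this rests on wild-type 4, at 25.2 CPM beside 0.424, 4.48 and 1.68 CPM in wild-type 1 to 3. Without that spleen mutant 3, at 0.456 CPM, stood at 20.8% of the wild-type mean. Mcpt8 and Gzmb are protease genes on the sides of Ctsg, at distances of 14683 and 156283 bases. Gzmb, a granzyme of cytotoxic cells, stood at 8.11%, 0.945% and 0.582% of the wild-type mean in mutants 1 to 3 (-4.85, SE 0.83), where Ctsg stood at 104%, 163% and 5.80%.

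**Figure D4:**
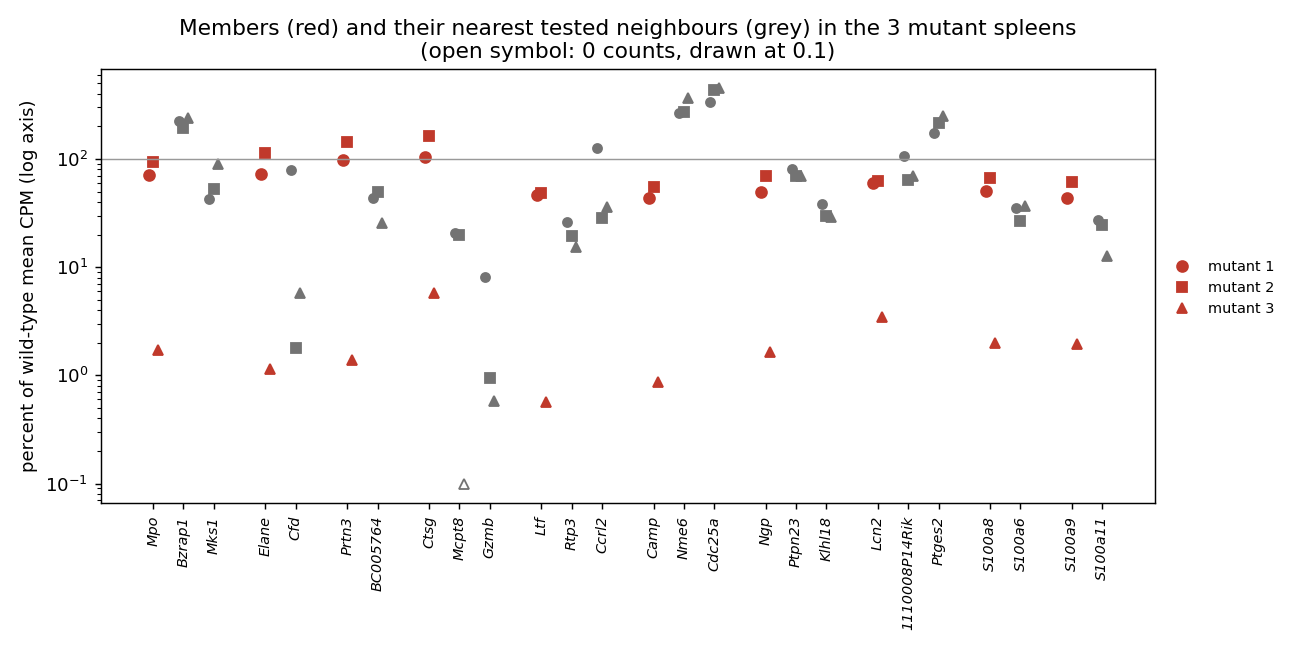
CPM as a percent of the wild-type mean, on a log axis, in the 3 mutant spleens for each member (red) and its nearest tested neighbours that are no member (grey), ordered by member. All 10 members stand at 0.570% to 5.80% in mutant 3, and 3 of the 16 neighbours are below 10% there.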

How the data were processed

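Total RNA of 7 whole spleens was sequenced. The authors deposited raw read counts per gene, and a table of CPM values scaled by TMM. So scaled, that table does not sum to the same total in each library, and it was used only in alternatives. Per the submitters' processing notes the tools included bcl2fastq 2.17.1.14, TopHat2 2.0.12, featureCounts of Subread 1.4.6 and edgeR, with the genome build mm10. Whether strand was used in counting is not given in the sources used here. Deposited starts count from 0 and are printed from 1.

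Counts were tested in R 4.3.3 with edgeR 4.0.16 (TMM, filterByExpr, group as the only term, Benjamini-Hochberg over 15188 genes, adjusted p under 0.05). The code was tested on simulated data. Alternatives used DESeq2 1.42.0, limma 3.58.1, other scalings and filters, and left out each library. Exon lengths came from GENCODE and promoters from RefSeq.

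The members and lists were chosen with earlier results of these data known. Beside the members the text names up to 4 genes per list with the smallest p, genes called against their list's median, nearest neighbours and the 5 most alike genes. Spi1, Cebpa, Cebpe, Fcnb and Ms4a3 were added after their values were seen. Ly6g is not analysed here. Some list genes enter the counts and sums of their list but are not reported singly here.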

Additional observations from a re-analysis of the deposited data

How the results depend on the processing

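None of the 10 members was called under any of the 20 alternatives, and 8 kept a negative fold change in all of them. The median over the members moved from -1.28 to -2.02 with limma-voom, -2.21 with the replicate block, -1.81 without mutant 2, -0.73 without mutant 3, -0.87 without wild-type 2 and -0.61 without wild-type 1 and 2 together. Over all alternatives Mpo ranged from -1.93 to -0.05, Elane from -1.83 to -0.03, and Ltf from -2.93 to -0.90. The sign turned for Ctsg and Prtn3. Leaving out 1 spleen at a time gave -0.87 to 0.42 for Ctsg and -1.03 to 0.27 for Prtn3, and for the neighbour Cfd -4.65 to 0.0752 and for Ms4a3 -1.20 to 0.22. Without wild-type 1 and 2 together, Ctsg stood at 0.38, Prtn3 at 0.42, Ccrl2 at 0.0764 and Ms4a3 at 0.37. The cause was not tested. Genes called over all numbered 8724, 9287 with DESeq2, 5934 without wild-type 1 and 2 together, and 7370 to 9821 with 1 spleen left out. Spleens of the same replicate number correlated at 0.04, -0.19 and 0.10 in their deviations from the group means. These values cannot show whether any spleens were matched, on which the labels say nothing. With the replicate block 6090 genes and 0 members were called. Mutant 3 held 4 counts each of Elane and Prtn3, and these counts limit the precision of ratios with them.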

Other observations

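Epx, the peroxidase of eosinophils and a relative of Mpo, stood at 0.52, 0.14 and 0.03 CPM in mutants 1 to 3 and at 19.5, 16.03, 8.19 and 3.97 CPM in wild type. It fell by 5.57 (SE 0.94) on the log2 scale (adjusted p = 0.00195, edgeR), with all 3 mutants below every wild-type spleen. Mpo lay within the wild-type range in mutants 1 and 2. The difference between both peroxidases was not tested, and Epx was chosen after its values were seen.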
